A study of Mus musculus with 17 samples.

Results

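The genes described here are 10 transcription factors that act in the heart: Gata4, Gata6, Nkx2-5, Mef2a, Mef2c, Mef2d, Tbx5, Tbx20, Hand2 and Runx1. They were picked by name, and each had a row of its own among the 31647 features of the count table. All 10 passed the filter on low counts. Transcripts were counted by massive analysis of cDNA ends (MACE), a method that reads the 3' ends of polyadenylated RNA and uses molecular identifiers to remove PCR duplicates. Tissue came from 17 wild-type mice of the strain C57BL/6 J, all male and young adults by the study's methods, each giving 1 library, and was taken 5 days after surgery. In 9 mice the LAD, the coronary artery that feeds the front wall of the left ventricle, had been permanently tied off, and the infarct zone (IZ) was cut out. The other 8 mice had sham surgery without ligation, and their left ventricle (LV) was used. Both groups are pieces of ventricle with all their cell types, so a level is an average over the tissue. The untouched remote part of the infarcted hearts was not analysed here.

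GATA4 and GATA6 are zinc finger proteins, NKX2-5 is a homeodomain protein, the MEF2 proteins belong to the MADS box family, TBX5 and TBX20 carry a T-box and HAND2 is a basic helix-loop-helix (bHLH) protein. They bind enhancers of contractile, ion channel and natriuretic peptide genes, often side by side, and several, among them GATA4, NKX2-5, MEF2C, TBX5 and HAND2, are required for heart formation in the embryo. Most are not confined to cardiomyocytes: GATA4, GATA6, TBX20 and HAND2 are also known from cardiac fibroblasts, and MEF2 proteins from nearly every cell type. RUNX1 is best known as a regulator of blood cell development, is present in leukocytes, and has also been described in cardiomyocytes of injured hearts.

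The gene bodies are on the mouse build mm10 (GRCm38), and all 10 are annotated as protein coding. Gata4 (ENSMUSG00000021944) is on chromosome 14 from 63198922 to 63271692, Gata6 (ENSMUSG00000005836) on chromosome 18, Nkx2-5 (ENSMUSG00000015579) on chromosome 17 from 26838664 to 26845009 and Mef2a (ENSMUSG00000030557) on chromosome 7 from 67231163 to 67372858. Mef2c (ENSMUSG00000005583) lies on chromosome 13 from 83504034 to 83667080, Mef2d (ENSMUSG00000001419) on chromosome 3 from 88142372 to 88172086 and Tbx5 (ENSMUSG00000018263) on chromosome 5 from 119832668 to 119885219. Tbx20 (ENSMUSG00000031965) is found on chromosome 9 from 24718138 to 24774303, Hand2 (ENSMUSG00000038193) on chromosome 8 from 57320983 to 57324633 and Runx1 (ENSMUSG00000022952) on chromosome 16 from 92601466 to 92826149. The reads came from the 3' ends of these genes.

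Total counts ran from 1237675 to 4738307 per library. Of 10 cardiomyocyte markers, genes of the sarcomere and of calcium handling, the summed level was 61205 to 75727 CPM (a count relative to its library size after scaling by the trimmed mean of M values, TMM) in the 8 sham libraries. In the IZ the sum was 25822 CPM in replicate 1 and 2109 to 5275 CPM in the other 8 libraries. Mitochondrially encoded features took 22.9 to 32.4% of the counts in sham, 19.5% in IZ replicate 1 and 4.22 to 6.78% in the other IZ libraries. IZ replicate 1 thus stood between the groups, and the results below are given with and without it.

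Start site windows, 250 bases before to 50 after each start, were taken from RefSeq (GRCm38.p6), where 7 of the 10 genes matched with 10 windows in all. Gata4, Gata6 and Tbx5 had no entry. The 3 windows printed here belong to the gene that rose, to the gene that was not called and to a gene that fell and has an antisense neighbour. Each is written 5' to 3' on the strand of its gene, and capitals mark the motifs found. Searched on both strands were AGATAA for GATA factors, AGGTGT for T-box factors, CACTTAA for NKX2 factors, TGTGGT for RUNX factors, CATCTG as an E-box, TATTTA for MEF2 factors and TATAAA as a core promoter box.
Runx1, chr16:92826025-92826324, minus strand: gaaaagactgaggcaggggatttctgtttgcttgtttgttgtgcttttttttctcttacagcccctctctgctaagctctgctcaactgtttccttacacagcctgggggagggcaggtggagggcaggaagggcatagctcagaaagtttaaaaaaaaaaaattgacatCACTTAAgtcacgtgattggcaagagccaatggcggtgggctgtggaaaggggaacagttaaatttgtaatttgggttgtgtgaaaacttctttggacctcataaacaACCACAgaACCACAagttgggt
Tbx20, chr9:24774254-24774553, minus strand: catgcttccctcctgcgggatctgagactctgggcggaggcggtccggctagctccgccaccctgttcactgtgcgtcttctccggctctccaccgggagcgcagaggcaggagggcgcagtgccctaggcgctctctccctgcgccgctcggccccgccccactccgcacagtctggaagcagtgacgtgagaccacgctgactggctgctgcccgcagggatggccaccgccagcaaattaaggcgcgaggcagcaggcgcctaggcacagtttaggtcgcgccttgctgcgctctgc
Hand2, chr8:57320733-57321032, plus strand: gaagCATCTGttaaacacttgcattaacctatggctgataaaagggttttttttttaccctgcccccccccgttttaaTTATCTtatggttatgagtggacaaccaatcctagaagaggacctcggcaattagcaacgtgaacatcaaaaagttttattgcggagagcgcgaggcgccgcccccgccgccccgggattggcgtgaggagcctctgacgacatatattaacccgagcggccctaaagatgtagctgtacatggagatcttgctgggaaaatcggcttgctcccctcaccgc

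In the Runx1 window an NKX2 motif began 80 bases before the start, and a pair of RUNX motifs on the opposite strand began 28 and 36 bases after it. The second Runx1 window, chr16:92697280-92697579, held none of the motifs. In the Hand2 window an E-box motif began 246 bases and a GATA motif on the opposite strand 172 bases before the start, and the Tbx20 window held none. None of the printed matches shared bases with another. Of all 32851 windows, 2.41% held the NKX2 motif, 16.8% the RUNX motif, 17.2% the E-box motif and 11.2% the GATA motif. The shares were 13.7% for the T-box, 13.7% for the MEF2 and 13.6% for the core promoter box, so such letters are common and a match describes the window only.

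The comparison of IZ with sham LV asked how transcript levels differed between these tissues 5 days after surgery. By the study's methods only the LV of infarcted mice was dissected further, so region and infarction cannot be told apart. Of the 10 factors, 8 were lower in the IZ, Runx1 was higher and Tbx20 was not called (edgeR quasi-likelihood test, Benjamini-Hochberg adjusted p under 0.05 over all 12301 tested genes), whereas with total counts alone as library sizes 5 were lower and 3 higher. Lower calls made up 33.0% and higher calls 36.2% of all tested genes. The median log2 fold change of the 10 factors was -1.25, beside 0.05 for all tested genes. Fewer cells of a type and less RNA per cell cannot be told apart in such tissue, here or in any result below. The plain scaling moved the median of all tested genes by 1.08 on the log2 scale. Relative to that median, each factor changed alike under both scalings, for example Mef2c by -0.79 and -0.83, and Runx1 by 3.67 and 3.69. New library sizes shift all genes by nearly the same amount, so this likeness follows from the arithmetic. It cannot tell which scaling is right.

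**Figure D1:**
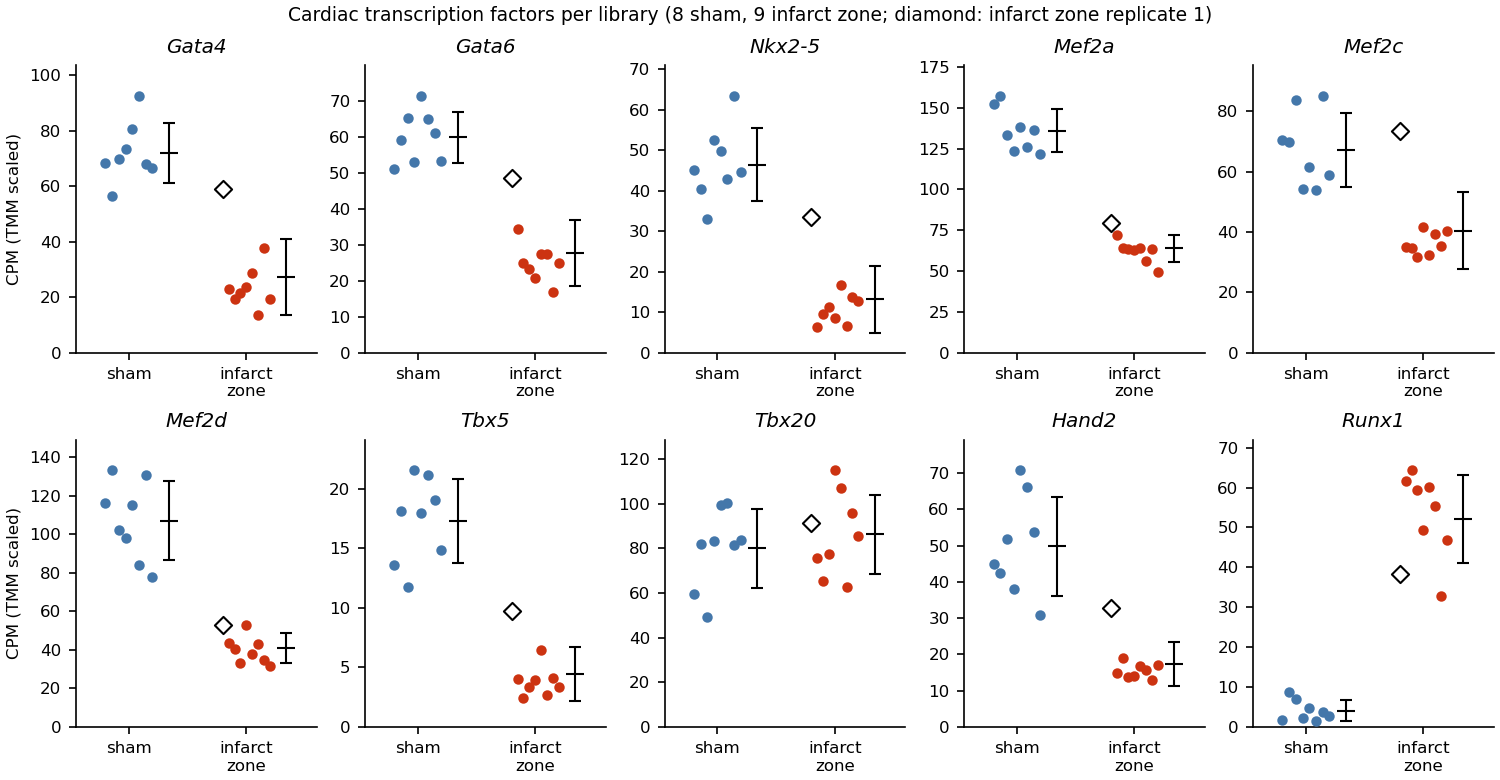
Level of each factor in CPM on TMM-scaled library sizes, 1 point per library, in 8 sham and 9 infarct zone libraries; the open diamond is infarct zone replicate 1 and the bars give the mean and SD. Without that library all other infarct zones lie below all shams for the 8 factors called lower, as in 20.0% of all tested genes, called or not. Runx1 lies above in all 9 infarct zones, and Tbx20 overlaps.

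In 4 of the 8 falling factors, Gata6, Mef2a, Mef2d and Tbx5, every IZ library lay below every sham library. That pattern was found in 2026 genes, 16.5% of all tested genes, while 4065 genes were called lower. In the other 4 the exception was IZ replicate 1, which was the highest IZ library in all 8. In what share of all tested genes it was the highest was not counted. Once IZ replicate 1 was left out, the remaining 8 IZ libraries lay below all shams in all 8 factors. This was then so in 2456 genes, 20.0% of all tested genes. The same 8 factors were called lower, beside 35.4% of the 11924 genes tested without that library. Every IZ library lay above every sham library for Runx1, as in 16.6% of tested genes. The factors in these counts had already been called, whereas the shares are over all tested genes, called or not.

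Among the GATA factors, Gata4 ranged in sham from 56.5 to 92.5 CPM with a median of 69.1, and in the IZ from 13.4 to 58.9 with a median of 22.9. The highest IZ value was replicate 1, which fell inside the sham range, while the next was 37.9 CPM. The mean fell from 71.9 ± 10.7 CPM (SD, n = 8) to 27.3 ± 13.7 CPM (SD, n = 9), a log2 fold change of -1.41 ± 0.21 (SE; edgeR quasi-likelihood adjusted p = 4.08e-06), or 2.65-fold lower with a 95% interval of 1.96 to 3.59. It was -1.67 ± 0.14 without IZ replicate 1. Gata6, the close relative of Gata4 that shares many of its binding sites, ran from 51.0 to 71.3 CPM in sham with a median of 60.1, and from 16.9 to 48.5 CPM in the IZ with a median of 25.0. The groups did not overlap. Its log2 fold change was -1.10 ± 0.15 (edgeR quasi-likelihood adjusted p = 5.16e-07), or -1.27 ± 0.13 without IZ replicate 1, and -0.053 without a call with total counts as library sizes.

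Of 6 GATA relatives and cofactors 4 were tested, and 2 fell. With total counts as library sizes 2 were higher and 1 lower, since Zfpm2 turned to 0.46 and Zfpm1, which encodes the relative FOG1, gained a call at 0.73. Gata2, a GATA factor of endothelial and blood cells, fell from 9.48 ± 2.26 CPM (SD, n = 8) to 2.29 ± 1.14 CPM (SD, n = 9), a log2 fold change of -1.86 ± 0.27 (edgeR quasi-likelihood adjusted p = 8.51e-07). Zfpm2, which encodes the GATA4 cofactor FOG2, fell by 0.62 ± 0.21 on the log2 scale (edgeR quasi-likelihood adjusted p = 0.0105). Gata3 averaged 4.39 ± 2.94 CPM in the sham LV (SD, n = 8) against 3.62 ± 2.66 CPM (SD, n = 9), a log2 difference of -0.32 ± 0.43 that was not called. Gata1, the factor of red cell and megakaryocyte precursors, had no count in any library, where 3 counts would be 0.41 to 2.35 CPM.

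Nkx2-5, the homeobox gene that marks the cardiac muscle lineage, ranged in sham from 32.9 to 63.3 CPM with a median of 44.8. In the IZ it ranged from 6.34 to 33.4 CPM with a median of 11.2. Only IZ replicate 1 reached the sham range, and the next IZ library had 16.5 CPM. The mean fell from 46.4 ± 9.02 CPM (SD, n = 8) to 13.1 ± 8.31 CPM (SD, n = 9). The log2 fold change was -1.85 ± 0.26 (edgeR quasi-likelihood adjusted p = 2.20e-06), 3.60-fold lower with a 95% interval of 2.48 to 5.23, and -2.19 ± 0.17 without IZ replicate 1. Counts behind the IZ values were 12 to 93 per library.

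All 3 MEF2 genes were called lower, but with total counts as library sizes Mef2a was at -0.023 without a call, and Mef2c turned to 0.30. Mef2a, a broadly used MEF2 gene of striated muscle, had 122 to 157 CPM in sham with a median of 135 and 49.5 to 79.3 CPM in the IZ with a median of 63.5. The groups did not overlap, and the coefficient of variation was 9.59% in sham and 13.3% in the IZ. The log2 fold change was -1.09 ± 0.10 (edgeR quasi-likelihood adjusted p = 9.06e-10). Mef2d, a relative tied to stress signals in the heart, ran from 77.6 to 133 CPM in sham with a median of 108, and from 31.5 to 52.8 CPM in the IZ with a median of 40.5. Again no IZ library reached a sham library. It fell by 1.39 ± 0.13 on the log2 scale (edgeR quasi-likelihood adjusted p = 8.92e-10).

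Mef2c, the MEF2 gene that the embryonic heart cannot form without and also used by endothelial and immune cells, changed least of the 8 falling factors. It ranged from 53.9 to 85.1 CPM in sham with a median of 65.7. The IZ ran from 31.8 to 73.6 CPM with a median of 35.3, where replicate 1 lay at 73.6 CPM, well inside the sham range, and the other 8 lay between 31.8 and 41.5 CPM. Its log2 fold change was -0.74 ± 0.15 (edgeR quasi-likelihood adjusted p = 1.16e-04), and -0.93 ± 0.12 without that library.

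The class IIa histone deacetylases, which bind MEF2 proteins and repress their targets, were all called, 3 lower and 1 higher, whereas with total counts as library sizes Hdac4 and Hdac5 were at 0.28 and 0.10 without a call. Hdac9 fell most, by 1.72 ± 0.29 on the log2 scale (edgeR quasi-likelihood adjusted p = 8.79e-06). Hdac5 fell by 0.95 ± 0.11 (edgeR quasi-likelihood adjusted p = 2.57e-08) and Hdac4 by 0.79 ± 0.13 (edgeR quasi-likelihood adjusted p = 5.27e-06). Hdac7, known mainly from endothelial and immune cells, rose from 40.5 ± 7.10 CPM (SD, n = 8) to 58.4 ± 10.5 CPM (SD, n = 9), a log2 fold change of 0.53 ± 0.13 (edgeR quasi-likelihood adjusted p = 6.07e-04). The related MADS box gene Srf and its coactivators were split, with 2 lower and 1 higher of 4, while under total counts 2 were higher and 1 lower, and Srf turned to 0.25 without a call. Myocd, the SRF coactivator of cardiac and smooth muscle, fell by 2.68 ± 0.41 on the log2 scale (edgeR quasi-likelihood adjusted p = 3.09e-06), and Srf itself by 0.81 ± 0.15 (edgeR quasi-likelihood adjusted p = 2.64e-05). Mrtfa, the actin-sensing coactivator, rose by 1.46 ± 0.21 (edgeR quasi-likelihood adjusted p = 1.28e-06), and Mrtfb was at 0.21 ± 0.15 without a call, though called at 1.30 with total counts.

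The T-box factors differed in their calls. Tbx5, which works with GATA4 and NKX2-5 on cardiac enhancers, was the least counted falling factor, with 15 to 50 counts per sham library and 5 to 29 per IZ library. It ranged from 11.8 to 21.5 CPM in sham with a median of 18.1, and from 2.45 to 9.69 CPM in the IZ with a median of 3.93. No IZ library reached a sham library, and replicate 1 was the highest IZ value. The log2 fold change was -1.98 ± 0.24 (edgeR quasi-likelihood adjusted p = 4.55e-08), 3.95-fold lower with a 95% interval of 2.82 to 5.54, and -2.24 ± 0.21 without IZ replicate 1.

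Tbx20, a T-box gene of cardiomyocytes, endocardium and other non-muscle cells of the heart, ranged from 49.4 to 100.5 CPM in sham with a median of 82.7. The IZ ranged from 62.8 to 115 CPM with a median of 85.7, and the groups overlapped over most of their ranges. Means were 80.0 ± 17.7 CPM (SD, n = 8) and 86.3 ± 17.9 CPM (SD, n = 9). The log2 difference was 0.10 ± 0.14 with a 95% interval of -0.19 to 0.40 (edgeR quasi-likelihood adjusted p = 0.534), so a fall of the size seen in the other cardiac factors lies outside the interval. Leaving out any 1 library gave values of 0.02 to 0.17. Tbx20 stayed within 0.049 of the median of all tested genes, and with total counts as library sizes, where that median moved up, it was called higher at 1.17.

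In the summed counts of Tbx5 and Tbx20, Tbx5 made up 15.1 to 20.5% in sham (median 18.3%) against 3.30 to 9.57% in the IZ (median 4.10%). IZ replicate 1 held the 9.57%, and the other 8 IZ libraries lay lower still. The share does not depend on library scaling, and the groups did not overlap. After thinning every library to the smallest total the medians were 20.2% and 4.10%, but the ranges overlapped. Of 9 other T-box genes 3 were tested, with 1 higher and 1 lower, or 2 higher and 1 lower with total counts as library sizes. Tbx3, a factor of the conduction system, fell by 2.09 ± 0.29 on the log2 scale (edgeR quasi-likelihood adjusted p = 4.16e-07), while Tbx18, an epicardial and mural cell factor, rose by 1.48 ± 0.30 (edgeR quasi-likelihood adjusted p = 1.16e-04), and Tbx2, at -0.31, was not called but was higher at 0.74 with total counts.

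Hand2, the bHLH factor of right ventricle and outflow tract development, ranged from 30.8 to 70.8 CPM in sham with a median of 48.4, and from 12.8 to 32.7 CPM in the IZ with a median of 15.6. IZ replicate 1 had the 32.7 CPM, just above the lowest sham library, and the other IZ libraries reached at most 18.9 CPM. The mean fell from 49.9 ± 13.7 CPM (SD, n = 8) to 17.4 ± 6.04 CPM (SD, n = 9). The log2 fold change was -1.51 ± 0.18 (edgeR quasi-likelihood adjusted p = 5.36e-08), and -1.71 ± 0.15 without that library. The antisense gene Hand2os1 overlaps the last 1000 bases of Hand2 on the opposite strand. It had 1437 counts in the sham and 509 in the IZ libraries together, with a log2 fold change of -2.65 ± 0.27 (edgeR quasi-likelihood adjusted p = 8.03e-08). Whether the counting used the strand is not given in the sources used here, so reads of this pair may be shared and the Hand2 values are uncertain to that extent. Lysmd4 overlaps the 3' end of Mef2a in the same way with 6 to 45 counts per library, and 1700113A16Rik that of Mef2d with at most 4.

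Of 13 HAND relatives, E proteins and other bHLH or Id genes 10 were tested, with 7 higher and 1 lower and a list median of 0.78, while with total counts as library sizes 9 were higher. Hand1, the paralogue of Hand2, had no count in any library. Id2, an inhibitor that captures E proteins, rose most, from 16.3 ± 7.83 CPM (SD, n = 8) to 69.2 ± 11.7 CPM (SD, n = 9), a log2 fold change of 2.06 ± 0.21 (edgeR quasi-likelihood adjusted p = 7.51e-09). Its relative Id1 fell by 1.14 ± 0.19 on the log2 scale (edgeR quasi-likelihood adjusted p = 1.67e-05). The Id genes thus moved in both directions, although with total counts Id1 was at -0.092 without a call.

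Runx1 ranged from 1.46 to 8.74 CPM in sham with a median of 3.28, which rested on 2 to 13 counts per library. In the IZ it ranged from 32.7 to 64.3 CPM with a median of 55.3 and 64 to 448 counts. The lowest IZ library lay far above the highest sham library, and IZ replicate 1, at 38.4 CPM, ranked 8 of 9. The mean rose from 4.03 ± 2.65 CPM (SD, n = 8) to 52.0 ± 11.0 CPM (SD, n = 9). The log2 fold change was 3.73 ± 0.24 (edgeR quasi-likelihood adjusted p = 1.08e-12), 13.3-fold higher with a 95% interval of 9.43 to 18.6, and above 98.7% of tested genes. It kept its call in all 26 alternatives and was 3.75 ± 0.22 without IZ replicate 1.

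Of 6 RUNX relatives and partners 5 were tested, with 2 higher and 1 lower, and all 5 were higher with total counts as library sizes. Runx2, the bone and cartilage factor, rose from 0.98 ± 0.82 CPM (SD, n = 8) to 8.53 ± 3.08 CPM (SD, n = 9), a log2 fold change of 3.19 ± 0.38 (edgeR quasi-likelihood adjusted p = 5.56e-08), from at most 4 counts per sham library. Cbfb, the subunit that pairs with all RUNX proteins, rose by 0.94 ± 0.19 (edgeR quasi-likelihood adjusted p = 8.22e-05). Cbfa2t3, a corepressor of the ETO family, fell by 0.69 ± 0.17 on the log2 scale (edgeR quasi-likelihood adjusted p = 9.35e-04). Runx3, the lymphocyte RUNX gene, did not pass the filter and had at most 5 counts per sham and 42 per IZ library.

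**Figure D2:**
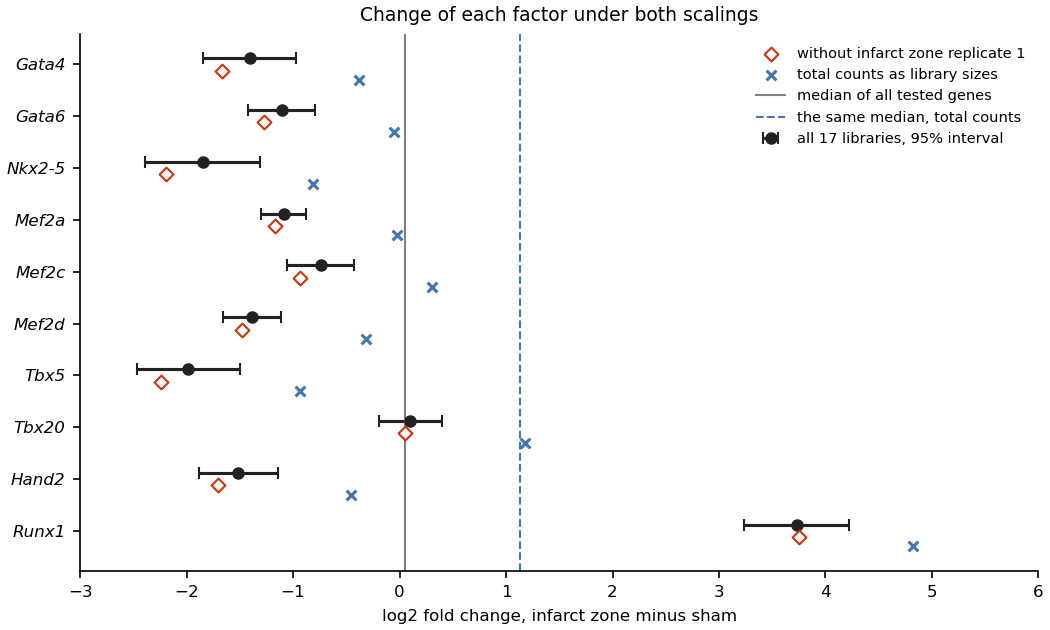
Log2 fold change of each factor, infarct zone minus sham, with 95% intervals from all 17 libraries (black), without infarct zone replicate 1 (red diamonds) and with total counts as library sizes (blue crosses). The vertical lines are the medians of all tested genes, which lie 1.08 apart under the 2 scalings; with total counts Mef2c lies above 0 and Gata6 and Mef2a close to it.

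The other regulators of cardiomyocyte transcription went down more often than up, with 12 of 16 tested genes lower, 2 higher and a median log2 fold change of -1.69, or 8 lower and 3 higher with total counts as library sizes. Hopx, a homeodomain-only protein that acts with SRF, fell from 423 ± 81.2 CPM (SD, n = 8) to 25.9 ± 17.5 CPM (SD, n = 9), a log2 fold change of -4.04 ± 0.29 (edgeR quasi-likelihood adjusted p = 2.28e-10), the lowest of the list. Nfatc4, a calcineurin-regulated factor, was the highest at 1.87 ± 0.21 (edgeR quasi-likelihood adjusted p = 1.73e-08). Of 24 genes known as targets of these factors 23 were tested, with 19 lower, 2 higher and a median of -2.61, and with 19 lower and 4 higher under total counts. Most of the cardiomyocyte markers are also on this target list, so the 2 lists are not separate results. Myl7, the atrial myosin light chain, had the lowest value at -4.97 ± 0.82 (edgeR quasi-likelihood adjusted p = 4.93e-05), with a spread of 95.6 CPM around a mean of 80.9 in sham. Nppa, the atrial natriuretic peptide gene and a classical target of GATA4, NKX2-5 and TBX5, rose from 324 ± 111 CPM (SD, n = 8) to 2990.2 ± 1383 CPM (SD, n = 9). Its log2 fold change was 3.21 ± 0.28 (edgeR quasi-likelihood adjusted p = 2.61e-10), against the direction of those factors. IZ replicate 1 had 6036 CPM of Nppa, against 2610 ± 834 CPM (SD, n = 8) in the other IZ libraries.

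**Figure D3:**
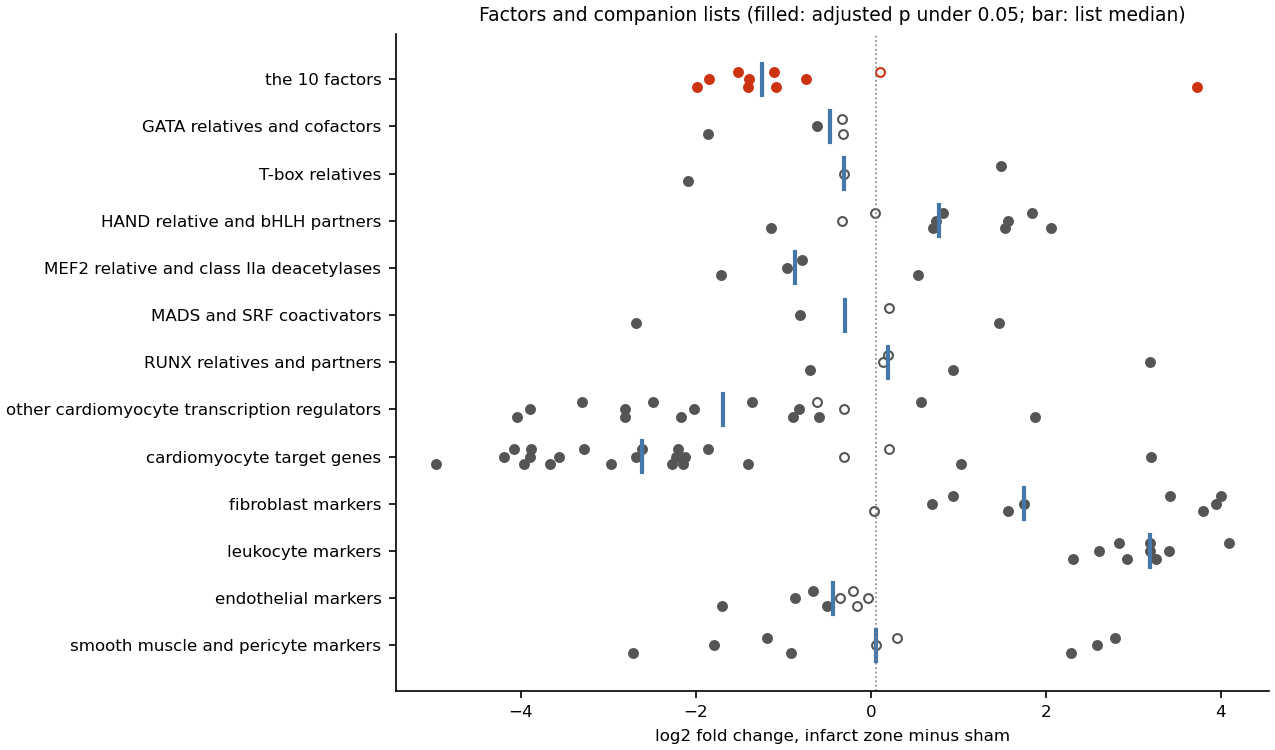
Log2 fold change, infarct zone minus sham, of each tested gene in the 10 factors (red), in lists of their relatives, partners and targets and in 4 lists of cell type markers. Filled points passed an adjusted p under 0.05 (edgeR), bars are list medians and the dotted line is the median of all tested genes; the factors have a median of -1.25, the cardiomyocyte targets of -2.61 and the leukocyte markers of 3.19.

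Markers of other cell types moved with the groups as well. The 10 cardiomyocyte markers, most of them also on the target list above, were all called lower. Their median log2 fold change was -3.29, and all 10 factors lay above that value. Only 7.97% of all tested genes lay below even the lowest factor, Tbx5 at -1.98. Lying above -3.29 is therefore not particular to the factors. All 9 tested leukocyte markers were higher, and their summed level was 301 to 451 CPM in sham, 1677 CPM in IZ replicate 1 and 3169 to 4806 CPM in the other IZ libraries. Of 9 fibroblast markers 8 were higher, with sums of 1546 to 2973 CPM in sham and 12601 to 20539 CPM in the IZ. Endothelial markers were lower in 4 of 8 tested genes, but with total counts higher in 6 and lower in 1. Smooth muscle and pericyte markers were higher in 3 and lower in 4 of 9, or in 5 and 2 with total counts. Epicardial markers were higher in 3 of 4 tested genes, and the megakaryocyte and platelet markers in 3 of 3. Among lymphocyte markers 8 of 9 did not pass the filter. Every measured marker of these lists had at least 1 count in the 17 libraries. The part of these cell types in the change of any factor was not tested.

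To set the factors against cardiac muscle transcripts alone, the summed counts of the 10 cardiomyocyte markers were used as library sizes. On that scale all 10 factors were called higher in the IZ, as were 97.9% of all tested genes, so the count says nothing particular about them. The median of all tested genes was 4.33 on the log2 scale. Tbx20 was at 4.33 ± 0.41, Runx1 at 8.03 ± 0.50 and the other 8 factors between 2.09 ± 0.43 for Tbx5 and 3.39 ± 0.40 for Mef2c. Per 1000 counts of the markers, Gata4 had 0.86 to 1.32 counts in sham, 2.28 in IZ replicate 1 and up to 10.2 in the other IZ libraries. Nkx2-5 had 0.52 to 0.89 counts per 1000 in sham, 1.29 in IZ replicate 1 and up to 5.30 in the IZ. The falling factors thus dropped less than the summed sarcomere and calcium handling genes did, as did nearly all tested genes. On this scale these 8 factors lay below the median of all tested genes.

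Among the 9 IZ libraries alone, the level of each factor was set against the log2 summed level of the cardiomyocyte markers, in a fit of 10349 genes with 9 of the factors. Tbx5 did not pass the filter within these libraries. Gata4, Nkx2-5, Mef2c and Hand2 were called with positive slopes, beside 10.1% of all tested genes. The slope was 0.44 ± 0.09 per doubling of the markers for Gata4 (edgeR quasi-likelihood adjusted p = 0.00152), 0.54 ± 0.11 for Nkx2-5 (adjusted p = 0.00120), 0.32 ± 0.06 for Mef2c (adjusted p = 9.51e-04) and 0.31 ± 0.09 for Hand2 (adjusted p = 0.0175). These calls rested on IZ replicate 1. Without it edgeR called none of the 9 factors (2 at an unadjusted p under 0.05, smallest adjusted p 0.559). Of all 10453 genes tested in that fit, 45 were called positive and 0 negative. Gata4 was then at 0.31 ± 0.26, Nkx2-5 at 0.38 ± 0.33, Mef2c at 0.16 ± 0.17 and Hand2 at -0.012 ± 0.23. Leaving out the 2 libraries farthest from the median, IZ replicates 1 and 4, also left no factor called, with 3 factors at an unadjusted p under 0.05. Of all 10389 genes tested in that fit, 25 were called positive and 3 negative.

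**Figure D4:**
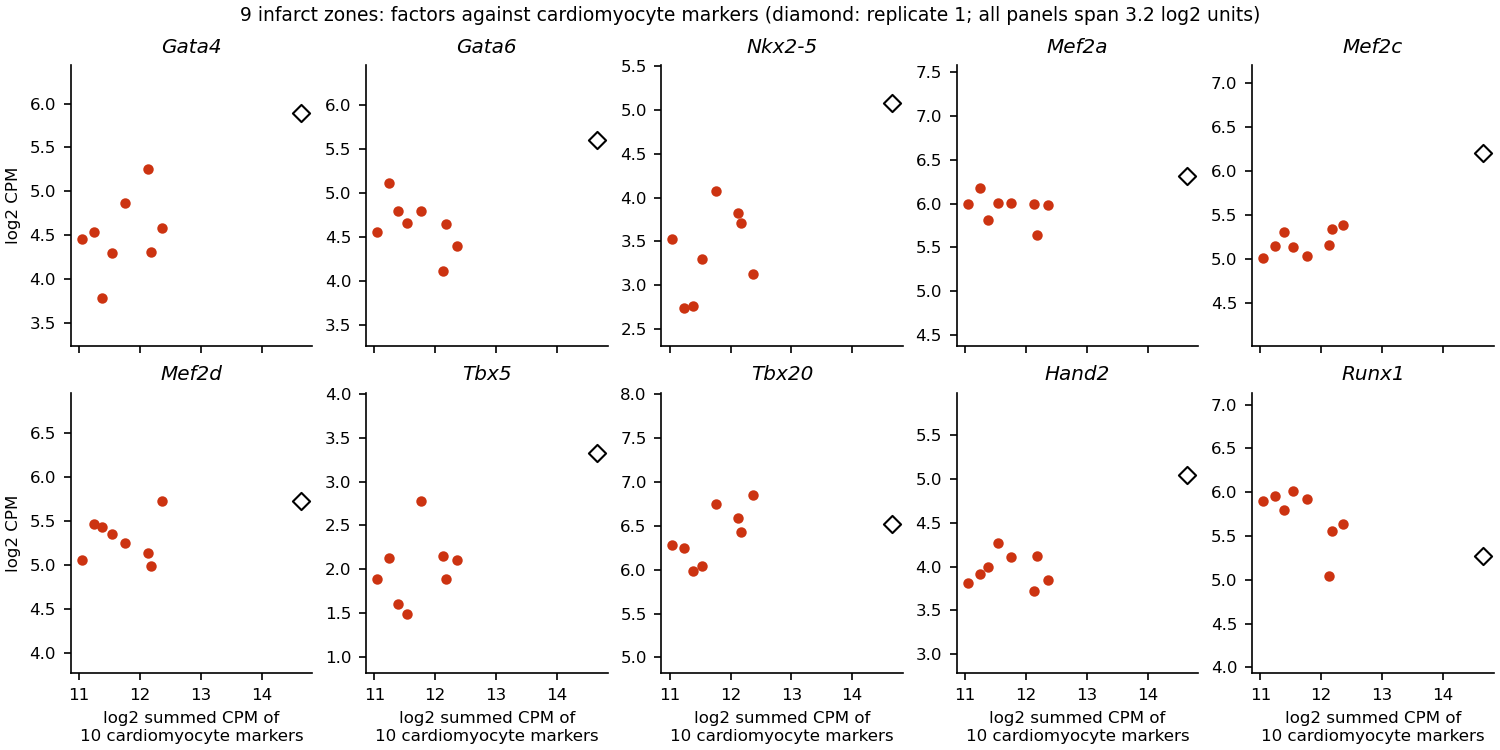
Level of each factor (log2 CPM) against the log2 summed CPM of 10 cardiomyocyte markers in the 9 infarct zone libraries; the diamond is replicate 1, and every panel spans the same height. Replicate 1 lies apart on the horizontal axis at 25822 CPM. Among the other 8 libraries, at 2109 to 5275 CPM, no factor had a called slope, and 45 of 10453 tested genes did.

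Shares within a family of paralogues were compared between the groups because they do not depend on library scaling. In the counts of the 3 MEF2 genes, Mef2d made up 30.1 to 37.2% in sham with a median of 34.9%, and 25.7 to 33.6% in the IZ with a median of 28.2%. The ranges overlapped. Mef2c made up 19.4 to 26.3% in sham and 23.3 to 35.8% in the IZ, with medians of 20.6 and 26.4%, and IZ replicate 1 held the 35.8%. Mef2a kept medians of 44.4 and 46.0%. In the counts of Gata4 and Gata6, Gata4 made up 48.8 to 58.8% in sham with a median of 54.3%, and 32.9 to 69.2% in the IZ with a median of 48.2%. The Gata4 share thus spread more among the infarct zones, with SDs of 3.49 points in sham and 10.4 in the IZ, at 76 to 415 counts of the pair per IZ library.

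**Figure D5:**
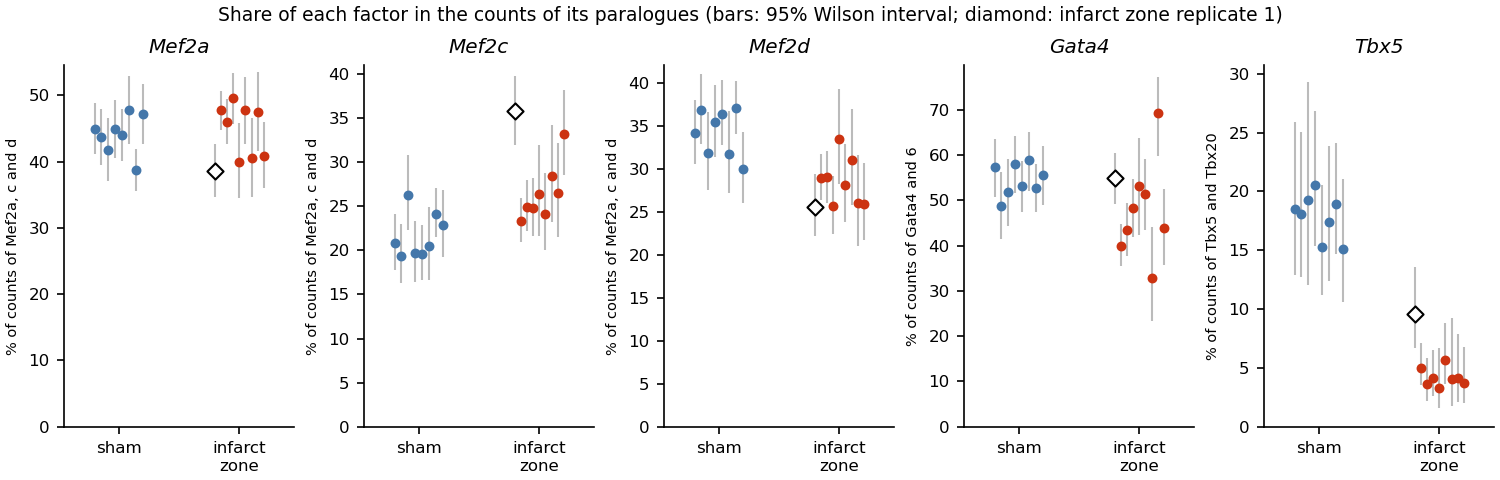
Share of Mef2a, Mef2c and Mef2d in their summed counts, of Gata4 in the counts of Gata4 and Gata6 and of Tbx5 in those of Tbx5 and Tbx20, in percent, 1 point per library with its 95% Wilson interval, which covers counting error only. The Tbx5 share is 15.1 to 20.5% in shams against 3.30 to 9.57% in infarct zones, and the other shares overlap between the groups.

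How the factors varied together was described by the Pearson r of log2 CPM over the 17 deviations from the group means, points that share library depth and composition. Gata4, Nkx2-5 and Tbx5 had an r of 0.77 to 0.79 with each other, and 0.52 to 0.58 without IZ replicate 1. The r of Gata6 with Hand2 was 0.76 and fell to 0.55 without that library. Mef2a and Mef2d stood at 0.67 and 0.60. Tbx5 and Tbx20 had an r of 0.64, and of 0.80 without that library. These are only some of the pairs, and not all stayed positive. Gata4 with Gata6 went from 0.36 to -0.31 without that library, and Gata4 with Mef2c from 0.40 to -0.36. Over the 9305 other genes averaging 10 CPM or more, the most alike were Txlnb for Gata4 (r = 0.93), Slc38a2 for Gata6 (0.84), Ppp2r3a for Nkx2-5 (0.94), Trp53i11 for Mef2a (0.83) and Vtn for Mef2c (0.90). They were Ube4b for Mef2d (0.86), Thap4 for Tbx5 (0.91), Usp46 for Tbx20 (0.91), Timm44 for Hand2 (0.87) and Ddi2 for Runx1 (0.84). Each is the highest of 9305 values over 17 deviations, so a high r is no sign of a link by itself. Without IZ replicate 1 the most alike gene was the same for 5 factors, Nkx2-5, Mef2a, Tbx5, Tbx20 and Runx1, and another for the other 5.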

How the data were processed

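The authors prepared 3' end libraries with molecular identifiers, trimmed the reads with Cutadapt, mapped them to mm10 and counted them per gene with HTSeq; per the labels, Bowtie2 and DESeq2 were also among their tools. The deposited values are raw counts, without normalization. The annotation release and the strand setting are not given in the sources used here.

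For testing, edgeR 4.0.16 was run on the counts in R 4.3.3 (filterByExpr with its minimum of 10 counts, TMM scaling, two-sided robust quasi-likelihood F-test, no covariate), with p values adjusted by the Benjamini-Hochberg method over all tested genes and a threshold of 0.05. SE was derived from the F statistic. Log2 CPM used a prior count of 1. A second fit used summed cardiomyocyte marker counts as library sizes, and another the slope on their log2 CPM within the IZ. Intervals are at 95% and, like the floor of 3 counts, cover counting error only where they are from counts. At low totals a 3' count limits the precision, most for Tbx5 and for Runx1 in sham.

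All 10 factors were named. In each list of relatives, partners or targets the tested gene with the highest and with the lowest fold change was named, as was each called gene of lists with at most 6 tested genes, and for each factor the most alike gene. Marker lists are given as sums and counts. Genes named outside this rule (Gata1, Hand1, Hand2os1, Lysmd4, 1700113A16Rik, Runx3, Mrtfb, Tbx2, Zfpm1) were chosen after their values were seen. Members and lists were chosen with earlier results of these data known. Mef2b and Nkx2-6 were listed but not measured, and Itgam was part of a merged feature. Alternatives were DESeq2 1.42.0, other scalings, filters, counts without mitochondrial features, thinning to the smallest total, a replicate block and the omission of each library. Genes were placed with Python 3.11.15, pandas 2.3.3 and BLAST 2.17.0, and scripts were tested on simulated data.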

Additional observations from a re-analysis of the deposited data

Results flagged for a closer look

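In 22 groups of 8 or 9 libraries, those of the 10 factors and of the summed cardiomyocyte markers in both conditions, the highest and lowest library were compared with the spread of the others by Dixon's criterion. Chance flags about 1 in 20 groups, and 4 stood out, all of them IZ replicate 1. The groups share the same libraries, so these 4 flags are not separate events. Its summed cardiomyocyte marker level was 25822 CPM, against 2109 to 5275 CPM in the other IZ libraries. Nkx2-5 was at 33.4 CPM there, against 6.34 to 16.5 CPM. Mef2c was at 73.6 CPM, against 31.8 to 41.5 CPM, and Hand2 at 32.7 CPM, against 12.8 to 18.9 CPM. The 3 factors are among the 4 with a called slope on the markers, a call that was lost without this library.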

How the results depend on the processing

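Under DESeq2, the other scalings but total counts, no filter, thinning, the removal of mitochondrial features and the omission of any 1 library, the counts stayed at 8 factors lower and 1 higher. With a minimum mean of 50 counts 7 were lower and 1 higher, since Tbx5 did not pass. With total counts alone 3 factors were higher and 5 lower, where Mef2c reversed to 0.30 (edgeR quasi-likelihood adjusted p = 0.0330), Gata6 (-0.053) and Mef2a (-0.023) lost their call and Tbx20 gained one at 1.17. Higher calls went from 52.3 to 85.7% of all calls by that scaling. With the replicate block 8 factors were lower and 1 higher, and no call changed, for example Runx1 at 3.75 and Mef2c at -0.77. Same-numbered libraries came from different mice. Correlations of their deviations ran from -0.22 to 0.13, and 1 of 8 pairs matched its own number best. Whether equal numbers shared a batch or an order of surgery was not tested. Relative to the cardiomyocyte markers all 10 factors were higher with the second marker list, with the replicate block and without IZ replicate 1.

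Within the IZ, 4 factors had a called slope, 4 with the second marker list, and 0 both without IZ replicate 1 and without the 2 libraries farthest from the median (edgeR, 2 and 3 factors at an unadjusted p under 0.05, no other tool was run). Of all genes, the fit without IZ replicate 1 called 45 of 10453 positive and 0 negative. The fit without 2 libraries called 25 of 10389 positive and 3 negative. In these 2 fits slopes reversed for Gata6 (-0.38 and -0.60), Mef2a (-0.16 and -0.20) and Hand2 (-0.012 and -0.14), and in the second for Mef2d (-0.080). Slopes of Gata4 (0.31 and 0.41), Nkx2-5 (0.38 and 0.71) and Mef2c (0.16 and 0.12) kept their sign with larger SEs. Tbx20 (0.42 and 0.55) and Runx1 (-0.44 and -0.52) also kept their sign. These 2 had the unadjusted p under 0.05 in both fits, joined by Gata6 in the second, and none was called. Both fits had fewer libraries and a narrower range of the markers. Median paralogue shares moved by less than 1 SD on thinning.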
